A study of Mus musculus with 6 samples.

Results

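The 9 Toll-like receptor genes Tlr1, Tlr2, Tlr3, Tlr4, Tlr6, Tlr7, Tlr8, Tlr9 and Tlr13 and their trafficking partner Unc93b1 were followed in RNA-seq counts of tumour-associated dendritic cells. Rows were taken by gene symbol, and all 10 were found among the 23225 genes of the count table. The cells were sorted from mice of the C57BL/6 strain that carried tumours based on ID8, a cell line of mouse ovarian surface epithelium that forms tumours and ascites in the peritoneum, at day 23. One group was wild type (WT, 3 libraries). In the other (XBP1-KO, 3 libraries) a conditional knockout removed XBP1, a transcription factor of the unfolded protein response, from cells positive for the integrin CD11c. The labels name neither the allele nor the driver of the deletion. CD11c is also carried by some macrophages and lymphocytes, so the deletion need not be limited to dendritic cells. The labels say that RNA was isolated separately for each sample but not whether separate animals gave them, so every p-value rests on the spread of these libraries alone, which may be technical.

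Toll-like receptors are membrane proteins whose ectodomains bind microbial molecules and whose cytoplasmic TIR domains recruit the adaptors MyD88 or TRIF. Receptors for lipids and lipoproteins act at the cell surface, while receptors for nucleic acids act in endosomes, to which the membrane protein UNC93B1 carries them from the endoplasmic reticulum. Dendritic cell subsets differ in the receptors they express, and signalling through them drives cytokine production and antigen presentation.

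Libraries held between 26946349 and 32709100 counts and are called a, b and c within each genotype, in the order of the columns. The columns carry no replicate number, so whether libraries of the same letter belong together is not known, and they were not paired. The first principal component of log2 CPM (counts scaled to library size) held 33.5% of the variance. On it WT libraries a, b and c lay at -32.84, 9.561 and -59.52 and XBP1-KO libraries a, b and c at 29.44, 37.51 and 15.84, with no overlap. On the second component, with 22.2% of the variance, libraries WT b and XBP1-KO b lay at 38.28 and 30.06 and the other 4 between -44.96 and -0.9934. Xbp1 itself, counted over the whole gene, was at 64.2 ± 14.3 CPM in WT (SD, n = 3) against 34.6 ± 5.07 CPM in XBP1-KO (SD, n = 3). Its libraries did not overlap, but edgeR's quasi-likelihood test gave it an adjusted p of 0.0545, above the threshold of 0.05. It was called in 5 of 15 alternative analyses: DESeq2 (0.00187), no filter on low counts (0.00731), a CPM filter (0.0464), and without WT b (0.0466) or both b libraries (0.0496). All 7 dendritic cell markers were detected, with a summed level of 64250 to 105200 CPM in WT and 59500 to 85310 CPM in XBP1-KO. Most of this sum was Cd74 alone, at 59850 to 99890 CPM in WT and 56670 to 80020 CPM in XBP1-KO. Transcripts of macrophages were also present, with 8 of 8 markers and sums of 14200 to 24770 CPM in WT and 17920 to 21800 CPM in XBP1-KO. Of these sums Lyz2 made up the most, at 9614 to 19040 CPM in WT and 12830 to 15880 CPM in XBP1-KO. With single genes leading them, the sums do not measure the share of each cell type. Of 11 marker lists with 77 genes, 74 were in the table, and no list held a gene at 0 in all libraries. Of these 74 genes, 8 rose and 1 fell, against 0.157% of all genes called higher and 0.288% called lower. The sums of some other lists did not overlap between the genotypes. Markers of resident peritoneal macrophages summed to 440.6 to 530.8 CPM in WT and 857 to 1219 CPM in XBP1-KO, those of T and NK cells to 187 to 239.1 and 262.9 to 417.8 CPM, and those of B cells to 135 to 324.5 and 349.8 to 508.1 CPM. Most of the resident macrophage sum was Alox15, at 278.2 to 325.4 CPM in WT and 554.4 to 812.9 CPM in XBP1-KO. Of the 6 genes of that list, 4 were higher in every XBP1-KO library, against 8.8% of all genes. Markers of conventional type 2 and monocyte-derived dendritic cells were lower in XBP1-KO, at 4514 to 5290 CPM against 5986 to 7678 CPM in WT. These sums, too, do not measure the share of each cell type. The part of these differences in the results below was not tested, and in bulk RNA fewer cells of a type and less RNA per cell cannot be told apart.

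None of the 10 genes changed between the genotypes in edgeR's quasi-likelihood test, against 0.445% of all genes tested (71 of 15958), with 0.157% called higher and 0.288% called lower. At an unadjusted p under 0.05 there was 1 of the 10, Tlr8, against 12.9% of all genes. DESeq2, which called 2.67% of all genes (426 of 15958), called Tlr8, while limma-voom and limma on the deposited CPM values called none of the 10. The libraries of the genotypes did not overlap for 1 of the 10, again Tlr8, against 19.2% of all genes. The fold change lay below 0 for 8 of the 10, against 43.9% of all genes, and the median log2 fold change was -0.22, against 0.06 over all genes. All 10 passed the filter on low counts.

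**Figure D1:**
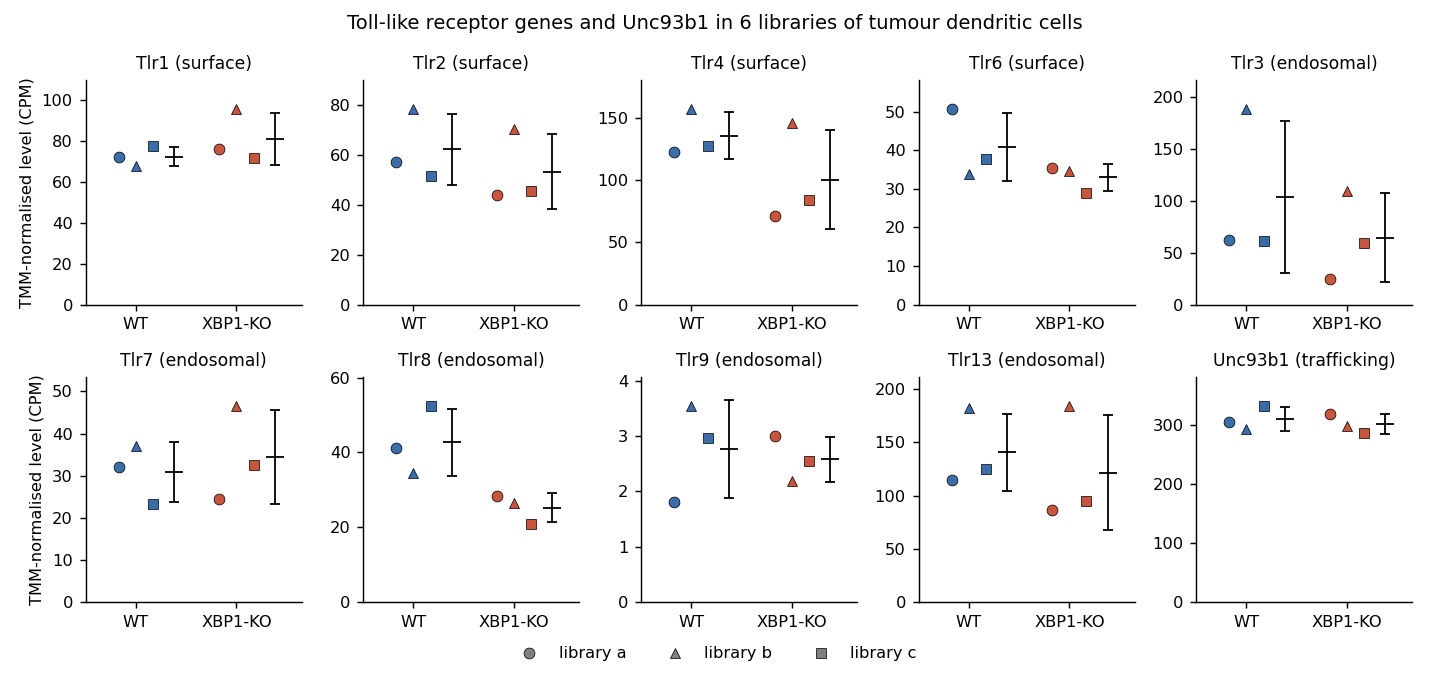
Normalised level (vertical axis, CPM) of each of the 9 receptor genes and Unc93b1 in the 3 WT and 3 XBP1-KO libraries, 1 panel per gene, with points for libraries a, b and c and bars for the mean ± SD. The genotypes are separate only for Tlr8, at 34.5 to 52.4 CPM in WT and 21.0 to 28.3 CPM in XBP1-KO, and libraries WT b and XBP1-KO b are the 2 highest for Tlr2, Tlr3, Tlr4, Tlr7 and Tlr13.

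**Figure D2:**
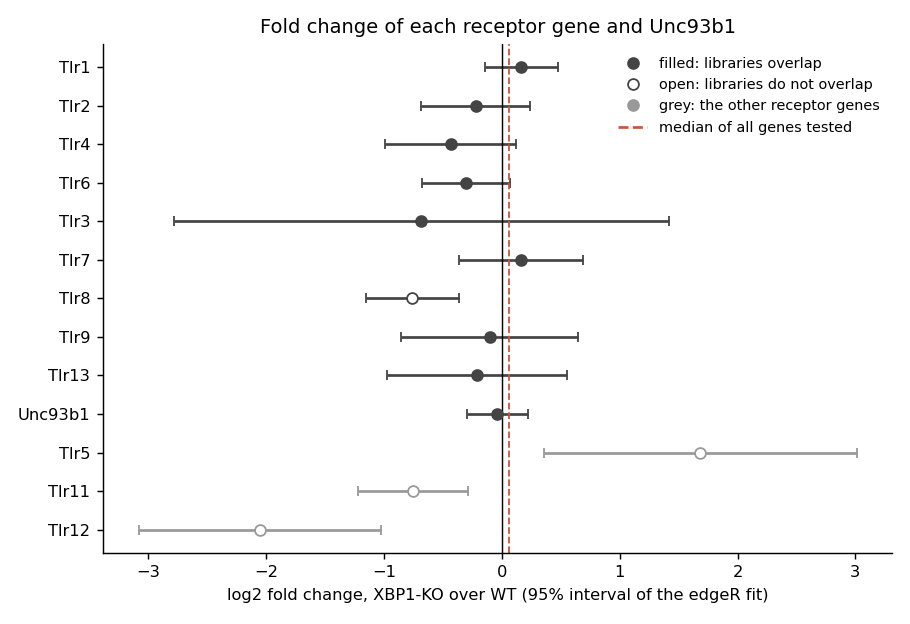
Fold change of XBP1-KO over WT (horizontal axis, log2) for the 10 genes and the receptor genes Tlr5, Tlr11 and Tlr12, with bars for the 95% interval of the edgeR fit and a dashed line at the median of all genes tested. Open points mark genes whose libraries do not overlap, and the widest interval, of Tlr3, runs from -2.79 to 1.42.

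Unc93b1, which the endosomal receptors need to leave the endoplasmic reticulum, was the steadiest of the 10 genes. Its level was 306, 293 and 332.5 CPM in WT libraries a, b and c and 320, 299 and 288 CPM in XBP1-KO libraries a, b and c. All 6 values lay within 1.16-fold of each other and the genotypes overlapped. The log2 fold change was -0.04 (SE 0.12), with a 95% interval from -0.30 to 0.22 and, by edgeR's quasi-likelihood test, an adjusted p of 0.915. This interval is the narrowest of the 10 and does not show that the level was equal. The sign of so small a value depended on the scaling, and was 0.04 on library size alone.

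Levels of different genes were compared per kilobase of the longest protein-coding transcript (RPKM, which is CPM divided by that length). In WT, Unc93b1 stood highest at 137 RPKM, followed by Tlr13 at 34.6 and Tlr4 at 33.3 RPKM, whose libraries overlapped. Tlr1, Tlr3 and Tlr2 came next at 23.9, 23.6 and 20.6 RPKM, each overlapping with its neighbour in the order. Tlr3 ranged most widely and reached 42.7 RPKM in library WT b, above the mean of Tlr4. Tlr8, Tlr6 and Tlr7 formed a lower group at 12.45, 11.1 and 7.91 RPKM, and Tlr9 lay far below at 0.797 RPKM, separate from Tlr7. Unc93b1 and Tlr9 kept the first and last place in XBP1-KO, at 133 and 0.742 RPKM. Between them the XBP1-KO order was Tlr13, Tlr1, Tlr4, Tlr2, Tlr3, Tlr6, Tlr7 and Tlr8, in which each gene overlapped with its neighbour. Tlr8 thus stood seventh in WT and ninth in XBP1-KO. The order in WT rested in part on the length used, since per kilobase of coding sequence Tlr4, at 54.25, lay above Tlr13, at 47.3.

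Tlr4, the receptor for lipopolysaccharide, had the lowest fold change of the 4 surface receptors. It was at 123, 157 and 127.5 CPM in WT libraries a, b and c and at 71.5, 145.9 and 84.4 CPM in XBP1-KO libraries a, b and c. XBP1-KO a and c lay below all WT libraries and XBP1-KO b lay among them. The mean was 136 ± 18.6 CPM in WT (SD, n = 3) against 100.6 ± 39.8 CPM in XBP1-KO (SD, n = 3), with a log2 fold change of -0.43 (SE 0.25) and, by edgeR's quasi-likelihood test, an adjusted p of 0.503. The call turned on 1 library: without XBP1-KO b the log2 fold change was -0.81 and the adjusted p 0.0357, in a fit that called 0.945% of all genes, and without any other library the adjusted p was not under 0.05.

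Tlr2, which pairs with TLR1 or TLR6 to bind bacterial lipopeptides, was at 56.8, 78.2 and 51.3 CPM in WT libraries and at 43.8, 70.4 and 45.5 CPM in XBP1-KO libraries. Library b was the highest of each genotype and the genotypes overlapped, with a log2 fold change of -0.22 (SE 0.21, adjusted p 0.695). Its partner Tlr1, for triacylated lipopeptides, was at 71.9, 67.7 and 77.3 CPM in WT and at 76.1, 95.5 and 71.6 CPM in XBP1-KO, where only library b lay above the WT range. Tlr6, the partner for diacylated lipopeptides, was at 50.7, 33.9 and 37.8 CPM in WT and at 35.5, 34.6 and 29.0 CPM in XBP1-KO, again with overlap. The log2 fold changes were 0.17 (SE 0.14, adjusted p 0.659) for Tlr1 and -0.30 (SE 0.17, adjusted p 0.491) for Tlr6. The ratio of Tlr1 to Tlr6 counts was 1.42, 2.00 and 2.04 in WT and 2.15, 2.76 and 2.47 in XBP1-KO, so that every XBP1-KO ratio lay above every WT ratio. This ratio was chosen with the values known and was not tested. The 2 genes are neighbours on chromosome 5 and share sequence: 15.26% of the 50-base words of the Tlr1 transcript occur in that of Tlr6, and 12.51% of those of Tlr6 in Tlr1, so some reads could have been assigned to either. Tlr2, Tlr4 and the 5 endosomal receptors shared no such word with another of these genes.

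Tlr8, one of the endosomal receptors, had the smallest p of the 10 genes. It was at 41.3, 34.5 and 52.4 CPM in WT libraries a, b and c and at 28.3, 26.45 and 20.97 CPM in XBP1-KO libraries a, b and c. Every XBP1-KO library lay below every WT library, as for 10.4% of all genes tested. The mean was 42.7 ± 9.03 CPM in WT (SD, n = 3) against 25.2 ± 3.81 CPM in XBP1-KO (SD, n = 3), with a log2 fold change of -0.76 (SE 0.18) and a 95% interval from -1.155 to -0.36. In edgeR's quasi-likelihood test the adjusted p was 0.0896 and missed the threshold. It ranged from 0.0161 to 0.384 over 15 alternative analyses, and was under 0.05 in 2 of them, DESeq2 (0.0161) and edgeR with no filter on low counts (0.0261), which called 2.67% and 1.09% of all genes. Relative to Unc93b1 counts, Tlr8 was at 0.135, 0.1175 and 0.1575 in WT and at 0.0884, 0.0884 and 0.0729 in XBP1-KO, with no overlap. Unc93b1 varied by only 1.16-fold over the 6 libraries, so this ratio largely repeats the Tlr8 values and is no separate support. It was chosen with the values known and was not tested.

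Tlr7, the sensor of single-stranded RNA next to Tlr8 on chromosome X, had overlapping genotypes. It was at 32.1, 37.2 and 23.2 CPM in WT and at 24.5, 46.5 and 32.6 CPM in XBP1-KO, highest in library b of each, and its log2 fold change was 0.16 (SE 0.24, adjusted p 0.812). The difference between the fold changes of the pair was not tested, and the ratio of Tlr8 to Tlr7 counts overlapped between the genotypes, at 0.928 to 2.26 in WT and 0.569 to 1.155 in XBP1-KO.

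Sequences upstream of start sites are shown for Tlr8, Tlr11 and Tlr12, the receptor genes whose libraries were all lower in XBP1-KO, to let the regions be read beside the values. They are the 250 bases before the annotated start, in RefSeq annotation of the mouse build GRCm38.p6, which is not the build of the counts, written 5′ to 3′ on the strand of the gene. Capitals mark the core GAGGAA, or its reverse complement, of the binding motif of PU.1, a transcription factor of myeloid cells.
Tlr8, chrX:167264330-167264579, minus strand: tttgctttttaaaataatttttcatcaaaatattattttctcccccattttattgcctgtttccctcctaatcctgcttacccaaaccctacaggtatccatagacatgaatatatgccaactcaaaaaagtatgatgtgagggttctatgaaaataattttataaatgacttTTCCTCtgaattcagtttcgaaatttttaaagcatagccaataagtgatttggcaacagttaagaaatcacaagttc
Tlr11, chr14:50357664-50357913, plus strand: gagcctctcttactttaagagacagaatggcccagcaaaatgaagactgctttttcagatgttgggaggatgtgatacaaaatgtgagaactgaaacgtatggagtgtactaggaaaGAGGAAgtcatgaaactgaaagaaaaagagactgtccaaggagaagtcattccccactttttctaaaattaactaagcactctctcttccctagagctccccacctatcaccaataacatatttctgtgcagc
Tlr12, chr4:128618620-128618869, minus strand, with no such core: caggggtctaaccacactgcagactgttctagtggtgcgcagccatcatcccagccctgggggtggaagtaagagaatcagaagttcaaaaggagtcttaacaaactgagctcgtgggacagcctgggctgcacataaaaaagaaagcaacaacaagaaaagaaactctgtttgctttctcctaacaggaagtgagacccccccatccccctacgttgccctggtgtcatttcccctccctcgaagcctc

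Of the 13 genes looked for (the 10 genes, Tlr5, Tlr11 and Tlr12), 10 had a start in the RefSeq promoter table, with 12 windows of these 250 bases in all, and Tlr4, Tlr7 and Unc93b1 had none. Motifs were searched on both strands. The PU.1 core was in 5 of the 12 windows (Tlr1, Tlr8, Tlr9, Tlr11 and Tlr13) and in 23.3% of the 32851 windows of the same 250 bases over all genes. An NF-kB pattern, GGGA and CC parted by any 4 bases, was in 3 (Tlr2, Tlr3 and Tlr5), against 17.6% of all windows, and an interferon response pattern, GAAA repeated after any 2 bases, in 2 (Tlr6 and Tlr11), against 2.98%. An AP-1 pattern, TGANTCA, was in the window of Tlr9 and in 6.75% of all windows. An XBP1 core, GCCACGT, and an unfolded protein response element, TGACGTGG, were in none of the 12 and in 2.02% and 0.563% of all windows. In AP-1, N is any base, and matches of different motifs can overlap. A match describes letters and is not a binding site.

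Tlr13, the mouse sensor of bacterial ribosomal RNA, was at 114.5, 182 and 125 CPM in WT libraries a, b and c and at 86.0, 184 and 94.9 CPM in XBP1-KO libraries a, b and c. The b libraries of both genotypes were nearly equal and stood above all others. The log2 fold change was -0.21 (SE 0.32, adjusted p 0.826). Tlr9, the sensor of unmethylated CpG DNA that is best known from plasmacytoid dendritic cells and B cells, was scarce, with counts of 51, 100 and 89 in WT and 82, 65 and 84 in XBP1-KO. Its normalised levels of 1.80, 3.54 and 2.97 CPM in WT and 3.00, 2.19 and 2.55 CPM in XBP1-KO overlapped, with a log2 fold change of -0.10 (SE 0.35, adjusted p 0.923). Markers of plasmacytoid dendritic cells summed to 174.9 to 233.2 CPM in WT and 192.8 to 277.8 CPM in XBP1-KO. Of these 7 markers, 3 had a fold change above 0 and 4 below 0 (43.9% of all genes were below). The sum does not measure the share of these cells.

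Tlr3, the sensor of double-stranded RNA and the one that signals through TRIF without MyD88, varied most, by 7.49-fold over the 6 libraries. It was at 62.4, 188 and 61.15 CPM in WT libraries a, b and c and at 25.1, 109.8 and 58.9 CPM in XBP1-KO libraries a, b and c. The b libraries were the highest of each genotype, XBP1-KO a was the lowest of all, and the genotypes overlapped. The log2 fold change was -0.69 (SE 0.78, adjusted p 0.761), with a 95% interval from -2.785 to 1.415, and without WT b it was 0.04. Tlr3 is known to be high in conventional type 1 dendritic cells (cDC1), which also carry the chemokine receptor Xcr1. Xcr1 was at 69.4, 171 and 66.8 CPM in WT libraries a, b and c and at 21.6, 115 and 62.1 CPM in XBP1-KO libraries a, b and c. The ratio of Tlr3 to Xcr1 counts lay between 0.900 and 1.16 in all 6 libraries, a range of 1.29-fold, and overlapped between the genotypes. Irf8, a transcription factor of cDC1 that other dendritic cells and B cells also express, was at 72.4, 134 and 63.3 CPM in WT and at 44.6, 105 and 88.1 CPM in XBP1-KO, again highest in the b libraries. For Clec9a, a receptor for dead cells on cDC1, the ratio lay between 3.39 and 5.14. The b libraries held the 2 highest values for 3 of the 5 cDC1 markers in the table (Xcr1, Irf8 and Clec9a), against 9.86% of all genes, but not for Itgae and Batf3. Itgae was at 53.7, 170 and 67.1 CPM in WT and at 29.2, 58.4 and 34.2 CPM in XBP1-KO, with XBP1-KO b below WT c. The 5 markers summed to 239.8 to 544.9 CPM in WT and 146.4 to 320.6 CPM in XBP1-KO. Whether the spread of Tlr3 reflects the number of such cells was not tested.

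**Figure D3:**
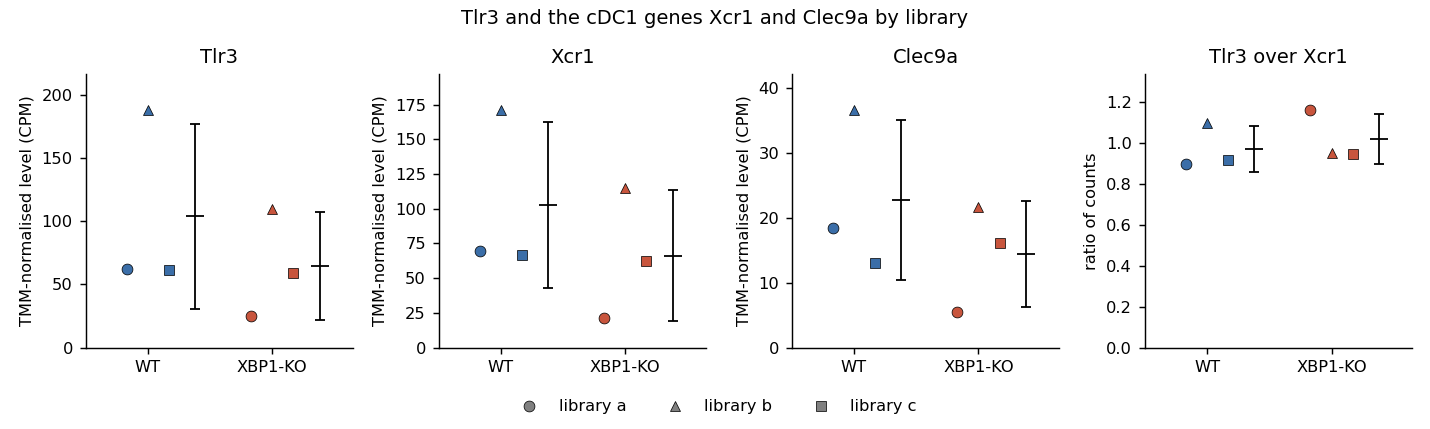
Normalised levels (CPM) of Tlr3 and of the cDC1 genes Xcr1 and Clec9a, and the ratio of Tlr3 to Xcr1 counts (last panel), by library in WT and XBP1-KO, with bars for the mean ± SD. The 3 genes are highest in WT b, next in XBP1-KO b and lowest in XBP1-KO a, while the ratio stays between 0.900 and 1.16.

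The 2 libraries that stood apart on the second component held the 2 highest values for 5 of the 10 genes (Tlr2, Tlr3, Tlr4, Tlr7 and Tlr13), against 9.86% of all genes tested, and the 2 lowest for none. Summed per length, the 9 receptors came to 149.8, 204.2 and 150.9 RPKM in WT libraries a, b and c and to 109.2, 190.6 and 119.3 RPKM in XBP1-KO libraries a, b and c. The endosomal receptors made up 42.2%, 53.0% and 44.3% of this sum in WT and 38.7%, 47.5% and 43.5% in XBP1-KO, highest in the b library of each genotype and overlapping between genotypes. In the other 4 libraries, both XBP1-KO values lay below both WT values for 6 of the 10 genes (Tlr2, Tlr3, Tlr4, Tlr6, Tlr8 and Tlr13), against 21.6% of all genes, and above them for none, against 27.4%. These 4 libraries were chosen by the second component of the same data. For Tlr2, Tlr3, Tlr4 and Tlr13, leaving out XBP1-KO b removed the only XBP1-KO value not below all WT values. With all libraries kept, only Tlr8 separated the genotypes. Several of these genes vary together and are not independent counts, so the split is no separate support for a difference. A fit to these 4 libraries gave log2 fold changes of -0.70 for Tlr4 (adjusted p 0.0653), -0.95 for Tlr8 (adjusted p 0.0817), -0.42 for Tlr13 (adjusted p 0.156) and -0.47 for Tlr6 (adjusted p 0.267). It called none of the 10, against 0.44% of all genes, and had 4 at an unadjusted p under 0.05, against 16.1%. Unc93b1 was at -0.09 and Tlr7 at 0.03 in that fit.

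**Figure D4:**
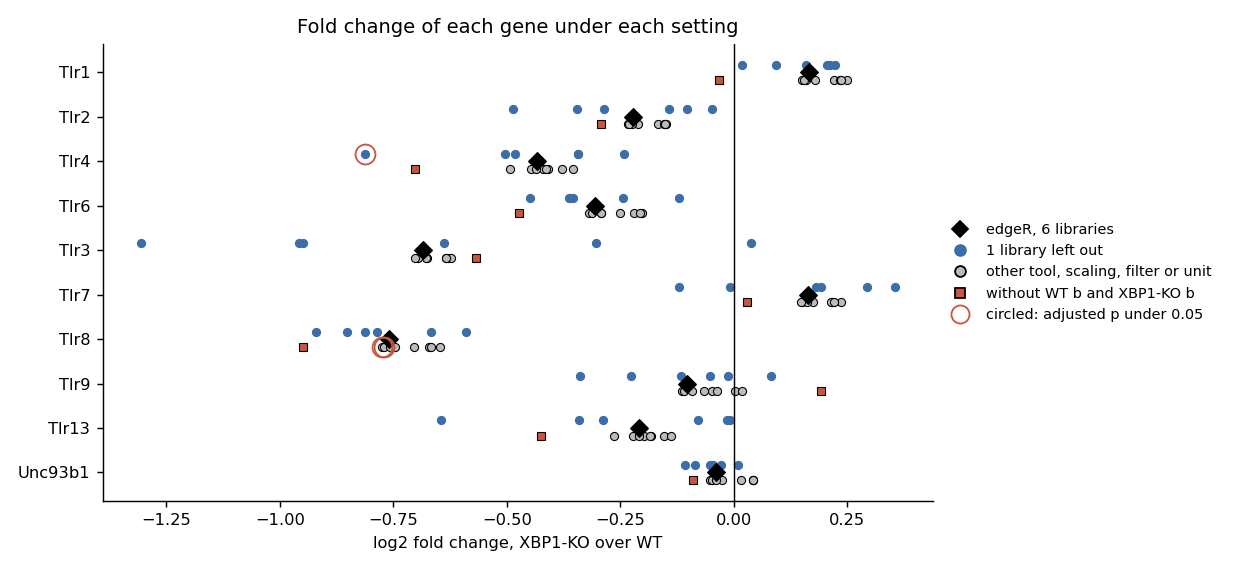
Fold change of XBP1-KO over WT (horizontal axis, log2) of each of the 10 genes in the edgeR fit to 6 libraries, with 1 library left out, with another tool, scaling, filter or unit, and without WT b and XBP1-KO b. Circles mark an adjusted p under 0.05, which Tlr8 reached in 2 alternatives and Tlr4 in 1, and the values of Tlr3 spread most, from -1.31 to 0.04.

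Outside the 10, the table held 3 further receptor genes, none of which was called, and the libraries of the genotypes did not overlap for any of them. Tlr11, a receptor for profilin of protozoa, was at 23.6, 39.2 and 29.96 CPM in WT and at 13.9, 20.7 and 20.4 CPM in XBP1-KO, with a log2 fold change of -0.75 (SE 0.22, adjusted p 0.145). Tlr12, which acts with TLR11 on the same ligand, had counts of 73, 94 and 137 in WT and 8, 33 and 36 in XBP1-KO, with a log2 fold change of -2.05 (SE 0.48, adjusted p 0.0826). Both are lower in every XBP1-KO library, as is Tlr8. DESeq2, which called 2.67% of all genes, called both, with adjusted p of 0.0419 for Tlr11 and 0.0035 for Tlr12. Of 15 alternative analyses, 1 called Tlr11 and 2 called Tlr12, and the largest adjusted p among them was 0.383 and 0.360. Tlr5, the flagellin receptor, lay the other way, with counts of 3, 23 and 19 in WT and 35, 58 and 59 in XBP1-KO and a log2 fold change of 1.69 (SE 0.61, adjusted p 0.257). Of all 12 receptor genes, 4 did not overlap, 3 of them lower and 1 higher in XBP1-KO, against 10.4% and 8.8% of all genes.

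The rest of the pathway was read from 9 lists of 107 genes, of which 106 were in the table and 102 were tested. Of these, 2 changed, Ticam2 and Il12b, and both fell, against 0.445% of all genes called and 0.288% called lower. Of 5 TIR adaptors, most of which link the receptors to kinases, all had a fold change below 0 (43.9% of all genes) and 1 fell. The median log2 fold change was -0.68 (0.06 over all genes), which is the value of Ticam2. Myd88 lay at only -0.03, and between -0.33 and 0.11 over 15 alternatives. Sarm1 was scarce, at 0.468 ± 0.261 CPM in WT against 0.220 ± 0.226 CPM in XBP1-KO (SD, n = 3 each), with overlap. Ticam2 encodes TRAM, which brings TRIF to TLR4. It was at 60.7, 71.9 and 71.8 CPM in WT and at 41.8, 43.55 and 42.3 CPM in XBP1-KO, with no overlap. It fell by 0.68 on the log2 scale (SE 0.13, adjusted p 0.0486), close to the threshold, and was called in 3 of 15 alternative analyses (no filter, a CPM filter and DESeq2). The call was lost with any 1 library left out (adjusted p 0.0518 to 0.263). Ticam2 also shares 18.99% of its 50-base words with its neighbour Tmed7, and 56.89% of those of Tmed7 occur in Ticam2. Some reads could thus have been assigned to either. Tmed7 was at 74.7 ± 3.37 CPM in WT against 78.8 ± 3.93 CPM in XBP1-KO (SD, n = 3 each). Ticam1, which encodes TRIF, was at 24.9, 30.7 and 46.1 CPM in WT and at 14.4, 18.35 and 23.7 CPM in XBP1-KO, with no overlap, a log2 fold change of -0.85 (SE 0.24) and an adjusted p of 0.1575. Myd88, the adaptor of most of the receptors, was at 160.7 ± 17.4 CPM in WT against 157.7 ± 51.05 CPM in XBP1-KO (SD, n = 3 each), with an adjusted p of 0.9655.

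Among 7 coreceptors and accessory proteins none changed and no gene separated the genotypes. Cd14, which hands lipopolysaccharide to TLR4, was at 421 ± 62.6 CPM in WT against 411 ± 37.0 CPM in XBP1-KO, and Ly96, the MD-2 chain that binds it, at 25.3 ± 2.94 and 26.5 ± 3.54 CPM (SD, n = 3 each). Lbp, the lipopolysaccharide-binding protein, had the smallest p of this list, with 11.2 ± 2.15 and 17.3 ± 5.26 CPM and an adjusted p of 0.286. None of 17 folding, trafficking and processing genes changed, with 8 fold changes above and 9 below 0 (43.9% of all genes were below). Hsp90b1, the chaperone gp96 that folds Toll-like receptors, was at 945 ± 55.0 CPM in WT against 784.5 ± 30.8 CPM in XBP1-KO, with no overlap and an adjusted p of 0.379. Its cochaperone Cnpy3 was at 36.1 ± 3.18 and 30.9 ± 1.77 CPM, also with no overlap, with an adjusted p of 0.552. Pld4, an endosomal nuclease that degrades receptor ligands, was at 1601 ± 245 CPM in WT against 1281 ± 38.3 CPM in XBP1-KO, with no overlap and an adjusted p of 0.3585.

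Downstream, none of 17 kinases and ubiquitin ligases, 12 transcription factors or 13 inhibitors changed, with median log2 fold changes of -0.02, 0.02 and -0.15. The genotypes did not overlap for 6 of the 17 (5 lower in XBP1-KO), 3 of the 12 (3 lower) and 3 of the 13 (2 lower). Over all genes this held for 19.2%, with 10.4% lower. The smallest p of each belonged to Ikbkg, the NEMO subunit of the IKK complex (94.8 ± 9.36 CPM in WT, 65.0 ± 10.8 CPM in XBP1-KO, adjusted p 0.128), to Creb1 (81.3 ± 11.8 and 59.5 ± 2.35 CPM, adjusted p 0.175) and to Dusp1, a phosphatase that switches off MAP kinases (24.9 ± 3.40 and 45.6 ± 19.6 CPM, adjusted p 0.195). Ikbkg and Creb1 were lower and Dusp1 was higher in every XBP1-KO library. Of 16 tested genes that Toll-like receptor signalling induces, 12 had a fold change above 0, none of which was called, 4 had one below 0, and Il12b fell. Il12b, the p40 chain of IL-12 and IL-23, was at 26.5 ± 7.85 CPM in WT against 8.26 ± 2.78 CPM in XBP1-KO (SD, n = 3 each), with no overlap, a log2 fold change of -1.68 and an adjusted p of 0.0440. It was called in 7 of 15 alternatives, but lost the call when 1 WT library (b, 0.101, or c, 0.180), 1 XBP1-KO library (a, 0.0631, or c, 0.0927) or both b libraries (0.0807) were left out. The call was also lost on library size alone (0.123) and with limma on the deposited CPM plus 1 (0.0992) or plus 0.1 (0.109). Of 12 other sensors of microbial ligands none changed, and 10 had a fold change below 0, against 43.9% of all genes. Mavs, the mitochondrial adaptor of the RNA helicase sensors, was the nearest, with 54.5 ± 8.26 and 37.0 ± 2.43 CPM, no overlap and an adjusted p of 0.118.

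**Figure D5:**
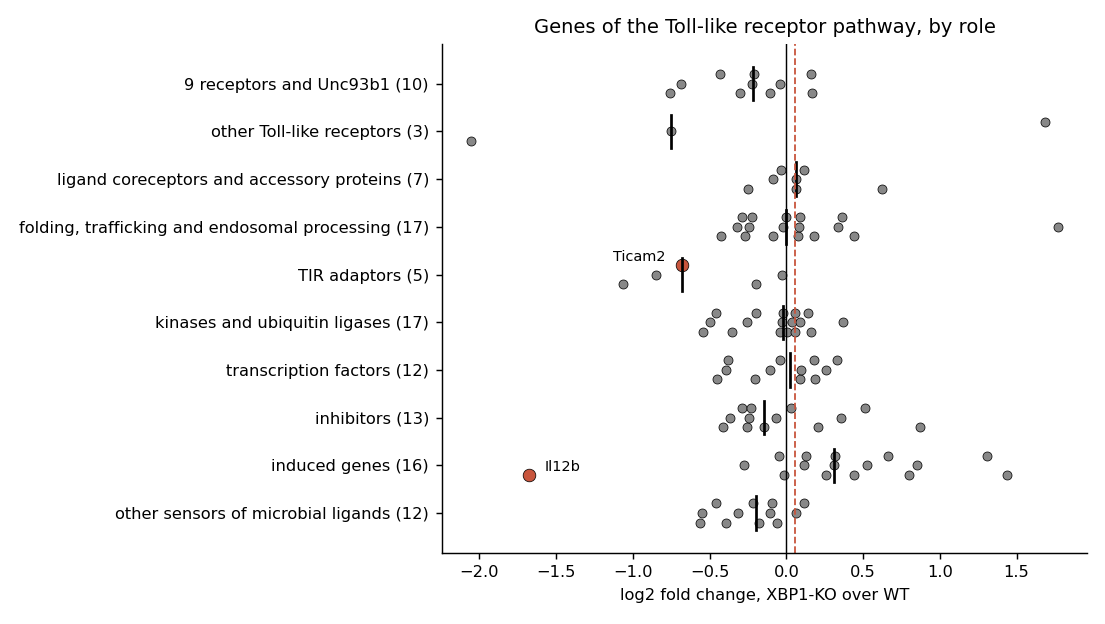
Fold change of XBP1-KO over WT (horizontal axis, log2) of each tested gene of the pathway, grouped by role with the number of genes in brackets, with a bar at each group's median and a dashed line at the median of all genes tested. Red points mark Ticam2 and Il12b, the 2 genes that fell. The TIR adaptors all lie below 0, Myd88 only at -0.03, with a median of -0.68, the value of Ticam2.

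Genes with the most similar pattern were sought over the 6 libraries among 9700 genes with a mean of at least 5 CPM, as a description only. For Unc93b1 these were Arpc1b, Pira6 and Pctp, with Pearson's r of log2 CPM of 0.997, 0.990 and 0.986. For Tlr4 they were Arid5a, Leo1 and Stard8, with r between 0.992 and 0.994, and for Tlr13 they were Slc39a14, Tfrc and Cln8, with r between 0.979 and 0.993. All of these values share the same libraries and their depth. Arid5a was at 33.2, 38.2 and 34.0 CPM in WT libraries a, b and c and 20.02, 39.03 and 22.88 CPM in XBP1-KO libraries a, b and c. As for Tlr4, XBP1-KO a and c lay below all WT libraries and XBP1-KO b did not.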

How the data were processed

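The authors deposited whole-number counts per gene for 6 libraries, not normalised, and a table of CPM values for genes with a CPM above 1 in at least 2 libraries. These CPM values equal the deposited counts scaled to the library total (largest difference 5.1e-11). The build mm9 and the tools RSEM and edgeR are listed, without version or role, per the submitters' processing notes. No source used here gives the aligner, annotation, strand setting or sort gate. Rows were matched by symbol, but the 10 genes, the gene lists and the motifs were chosen with earlier results of these data known.

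Counts were tested in R 4.3.3 with edgeR 4.0.16 (filterByExpr, TMM scaling, robust quasi-likelihood fit, genotype as the only term, two-sided), with Benjamini-Hochberg adjustment over all 15958 genes tested and a threshold of 0.05. The SE is the size of the log2 fold change over the root of its F statistic, and intervals use the t distribution of the fit. Levels are TMM-normalised CPM. RPKM used the longest protein-coding transcript of the GENCODE annotation of GRCm38, which was used only for lengths, neighbours and shared 50-base words. Alternatives were DESeq2 1.42.0, limma 3.58.1 (voom, and log2 of the deposited CPM values plus 1 or 0.1), other scalings and filters, each library left out, and both b libraries left out.

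Named genes were the 10, Tlr5, Tlr11, Tlr12, Xbp1, the called genes or the smallest p of each pathway list, Myd88, Ticam1, Cd14, Ly96, Hsp90b1 and Cnpy3, and the 3 genes most like Unc93b1, Tlr4 and Tlr13. Of each marker list the rule took the 2 genes with the highest mean. The text gives marker lists by their sums and these genes only for cDC1, monocyte-derived, resident macrophage and mast cell markers. Of the dendritic cell and macrophage lists it gives only the highest, Cd74 and Lyz2. Tmed7, Sarm1, Clec9a, Itgae, Batf3, Cpa3, Tpsb2 and the ratios fall outside this rule and were added with their values known. The spread between libraries, with a biological coefficient of variation of 0.25, rather than counting error limits the precision of all but the scarcest genes.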

Additional observations from a re-analysis of the deposited data

How the results depend on the processing

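Of 150 fold changes (10 genes under 15 alternatives), 134 kept their direction and their side of the threshold, 3 passed it (Tlr8 under 2, Tlr4 under 1) and 13 changed sign. The cause of these changes was not tested. The count of the 10 genes called was 0, and became 1 with no filter on low counts and 1 with DESeq2 (Tlr8 in both), and 0 to 1 with 1 library left out (Tlr4, without XBP1-KO b). Tlr3 and Tlr7, at -0.69 and 0.16 in 6 libraries, were among those that changed sign. Unc93b1 was at 0.016 with upper quartile scaling and 0.042 on library size alone and with limma at either pseudocount. Tlr9 was at 0.003 and 0.019 with limma on log2 CPM plus 1 and 0.1, and at 0.193 without both b libraries, where Tlr1 was at -0.033. With 1 library left out, Unc93b1 ranged from -0.107 to 0.010, Tlr9 from -0.338 to 0.082, Tlr3 from -1.307 to 0.037 and Tlr7 from -0.121 to 0.355. The direction turned without WT c for Unc93b1, without WT b for Tlr9 and Tlr3, and without WT c or XBP1-KO b for Tlr7.

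Of all genes tested, 71 were called (25 higher and 46 lower), against 25 on library size alone (13 and 12), 50 with upper quartile scaling (23 and 27), 252 with no filter, 426 with DESeq2, 47 with limma-voom, 25 and 13 with limma on CPM plus 1 and 0.1, and 5 to 154 with 1 library left out, lowest without WT c and highest without XBP1-KO b. The median over all genes tested was 0.06, and 0.14 on library size alone. No paired analysis was possible because the columns carry no replicate number.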

Other observations

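Ccr2, a chemokine receptor of monocytes and monocyte-derived dendritic cells, was at 2694, 2282 and 3107 CPM in WT libraries a, b and c and at 1698, 1862 and 1607 CPM in XBP1-KO libraries a, b and c, with no overlap, and edgeR's quasi-likelihood test gave an adjusted p of 0.0785. Cd209a of the same marker list overlapped, at 1632 ± 342.9 CPM in WT against 1378 ± 314.4 CPM in XBP1-KO (SD, n = 3 each), with an adjusted p of 0.634. Alox15, a lipoxygenase of resident peritoneal macrophages, rose from 303 ± 23.7 to 651 ± 141 CPM (adjusted p 0.0142, SD, n = 3 each), and was not called without WT b (0.0512) or WT c (0.121). Prg4, also of that list, was at 65.1 ± 18.6 CPM in WT against 158 ± 36.3 CPM in XBP1-KO, with no overlap and an adjusted p of 0.0572.

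Of 5 mast cell markers, the proteases Cma1, Cpa3 and Tpsb2 rose, against 0.157% of all genes called higher. Of the 5, 4 were higher in every XBP1-KO library, against 8.8% of all genes, with a list median of 1.18 on the log2 scale. Cma1 rose from 14.5 ± 1.05 to 34.45 ± 8.29 CPM (adjusted p 0.0192, SD, n = 3 each), and lost its call when 1 WT library (b, 0.0887, or c, 0.116) or 1 XBP1-KO library (a, 0.0533, or c, 0.0861) was left out. Kit, the receptor for stem cell factor, was lower in every XBP1-KO library, at 102 ± 35.5 CPM in WT against 63.5 ± 5.99 CPM in XBP1-KO, but was not called (adjusted p 0.2095). The sum of this list, of which Kit is the most abundant gene, was 112.2 to 176.3 CPM in WT and 133.2 to 184.7 CPM in XBP1-KO. Markers of neutrophils summed to 60.35 to 229.4 CPM in WT and 155.8 to 407.1 CPM in XBP1-KO, and those of tumour epithelial cells to 102.9 to 143.6 and 90 to 160.5 CPM, both with overlap. The part of these genes in the levels of the receptor genes was not tested.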
